A study of Mus musculus with 6 samples.

Results

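The genes described here are 51 symbols of the interferon response and of class I antigen presentation, taken from a list of names and not from measured values. Of these, 50 were found among the 23235 genes of the deposited tables, and the symbol Ifi27 was not. A further filter kept the 39 genes with at least 0.5 FPKM in some group, as against 15218 of all genes. FPKM is the number of sequenced fragments scaled to transcript length and to the fragments mapped, so levels of different genes can be compared on it. At the filter, Bst2, Irf7 and Trim25 lay just inside, with highest group values of 0.504, 0.505 and 0.509 FPKM. Mx2, Ifit1 and Ifitm1 lay just outside, at 0.485, 0.314 and 0.256 FPKM.

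The libraries are RNA sequencing of mouse primary neurons of cortex and hippocampus, 6 in all. They form 3 groups of 2: HDAC2 knockdown, Sp3 knockdown and control. HDAC2 is a histone deacetylase of corepressor complexes, and Sp3 is a zinc finger protein that acts at GC-rich promoters. All groups share the same preparation, which began with embryos at day 15 and ran for 17 days in culture, with 1 uM cytosine arabinoside, which blocks dividing cells, on day 5 and lentivirus carrying a short hairpin RNA on day 12. The hairpin of the control virus, the strain of the mice and the number of animals pooled are not stated in the labels. Whether the 2 libraries of each group are separate cultures is not stated either, so p-values may measure technical spread alone. The authors' deposited tables give 1 FPKM value per group and none per library, so no spread within a group can be shown, and errors are the standard errors (SE) implied by the authors' test statistic. Total counts per library are unknown. Both comparisons use the same control libraries, so a high or low control value moves both in the same direction.

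As background, type I interferons bind the receptor chains Ifnar1 and Ifnar2, and interferon gamma binds Ifngr1 and Ifngr2. The receptors act through the kinases Jak1, Jak2 and Tyk2 on STAT proteins. Stat2 and Irf9 act at the interferon-stimulated response element (ISRE), and the gamma-activated site (GAS) serves responses to interferon gamma, both being found in promoters of induced antiviral genes. Class I antigen presentation shows peptides at the cell surface on a heavy chain, such as H2-K1 or H2-D1, paired with the light chain B2m. The Tap1 and Tap2 transporter brings these peptides into the endoplasmic reticulum, and tapasin, encoded by Tapbp, helps load them. Neurons hold little class I at rest, and glia and immune cells respond readily to interferon.

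The targeted genes were lower in their own knockdown. In the authors' deposited tables Hdac2 stood at 12.3 FPKM in HDAC2 knockdown and 49.4 FPKM in control, and Sp3 at 5.82 FPKM in Sp3 knockdown and 15.5 FPKM in control. Each targeted gene was also called in the other knockdown by the authors' deposited table. Sp3 was called higher in HDAC2 knockdown, at 26.7 FPKM (q listed at 0 by the authors' deposited table). Hdac2 was called lower in Sp3 knockdown, at 38.8 FPKM (q = 0.00598 by the authors' deposited table). The whole table also shifted. In HDAC2 knockdown 24.6% of the 13569 genes tested by the authors were called higher and 3.6% lower at q under 0.05, and the median log2 fold change of genes with at least 1 FPKM was 0.32. In Sp3 knockdown the shares were 13.2% higher and 26.1% lower of 13619 genes tested, and that median was -0.13. Each member is therefore also given with this median subtracted, called centred below, with a normal p adjusted by Benjamini-Hochberg over the whole table. After centring, the backgrounds were 10.2% higher and 7.59% lower for HDAC2 knockdown, and 20.2% higher and 17.6% lower for Sp3 knockdown.

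Markers of other cells also moved with the groups. The summed level of 11 astrocyte markers was 2443 FPKM in HDAC2 knockdown, 684 FPKM in Sp3 knockdown and 804 FPKM in control. After centring, 5 of the 10 astrocyte markers tested were higher in HDAC2 knockdown, and in Sp3 knockdown 2 of 11 were higher and 6 lower. Oligodendrocyte lineage markers summed to 428 FPKM in HDAC2 knockdown, 130.3 FPKM in Sp3 knockdown and 225 FPKM in control. After centring, 7 of 11 were higher in HDAC2 knockdown and 7 of 9 lower in Sp3 knockdown. Neuron markers, 9 in the tables, summed to 1144 FPKM in HDAC2 knockdown, 1382 FPKM in Sp3 knockdown and 1030.2 FPKM in control. Of the 9 tested by the authors with Cuffdiff, 0 were called in HDAC2 knockdown as deposited or centred, 2 having an unadjusted p under 0.05, and 5 were centred higher in Sp3 knockdown. The 15 microglia markers summed to 6.62, 4.87 and 6.82 FPKM in HDAC2 knockdown, Sp3 knockdown and control. Most of this was Cd68, at 3.47, 2.82 and 4.503 FPKM in that order and called in neither comparison, while Tyrobp, Tmem119 and C1qc were listed at 0 in every group. The 8 T, B and NK cell markers summed to 1.63, 1.41 and 1.14 FPKM in the same order, most of it Cd3d, with Cd3e, Ncr1 and Nkg7 at 0 throughout. The 10 endothelial markers summed to 3.09, 1.9 and 2.24 FPKM, and the 10 pericyte and fibroblast markers to 43.5, 52.9 and 29.5 FPKM, most of it Dcn. In bulk RNA fewer cells of a type and less RNA per cell cannot be told apart, and the part of the glial shift in the results below was not tested.

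**Figure D1:**
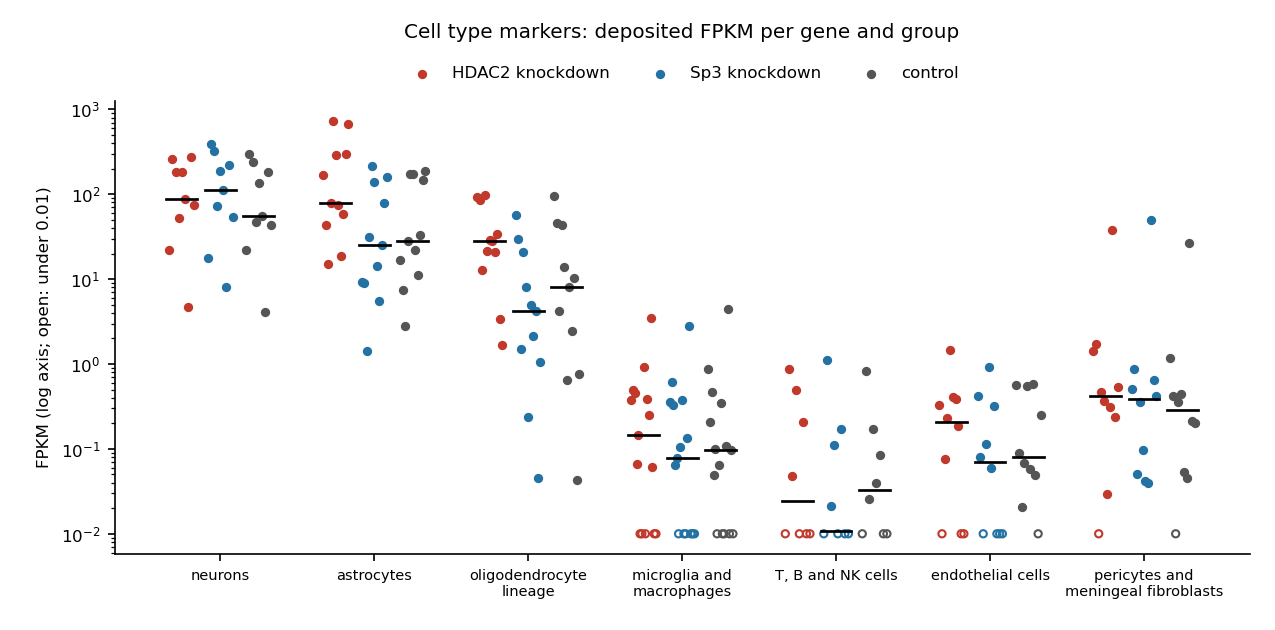
Deposited FPKM (log axis) of cell type marker genes, 1 point per gene and group, with open points for genes under 0.01 FPKM and a bar at the median. Astrocyte and oligodendrocyte lineage markers lie highest in HDAC2 knockdown, and most microglia and T, B and NK cell markers lie below 1 FPKM in each group.

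In each group most members stood below 10 FPKM. Of the 50 in the tables, 12 had at least 10 FPKM in HDAC2 knockdown, against 9 in Sp3 knockdown and 7 in control. Below 1 FPKM stood 19 in HDAC2 knockdown, 24 in Sp3 knockdown and 27 in control. Their median level was 2.18 FPKM in HDAC2 knockdown, 1.19 FPKM in Sp3 knockdown and 0.673 FPKM in control. The highest members in control were signalling and editing genes, namely Jak1 at 45.1 FPKM, Adar at 37.4, Ifngr2 at 32.2 and Ifnar1 at 21.3. In HDAC2 knockdown the first places were held by Ifngr2 at 60.6 FPKM and B2m at 53.5 FPKM, and B2m stood at 9.53 FPKM in control. The classical interferon-stimulated effectors were at the other end. The RNA helicase sensor Ifih1, the nucleic acid sensor Zbp1, the GTPases Mx1 and Mx2, the 2-5A synthetase gene Oas1a and its relative Oasl2, together with Ifit1, Ifitm1, the ISG15 protease Usp18, Parp14 and the class I transactivator Nlrc5, stayed below 0.5 FPKM in every group. These 11 genes were outside the authors' test in both tables and get no call here. Among the 39 that passed the filter, 13 were below 0.5 FPKM in control and passed only through a knockdown, so counts over the 39 lean towards higher calls.

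**Figure D2:**
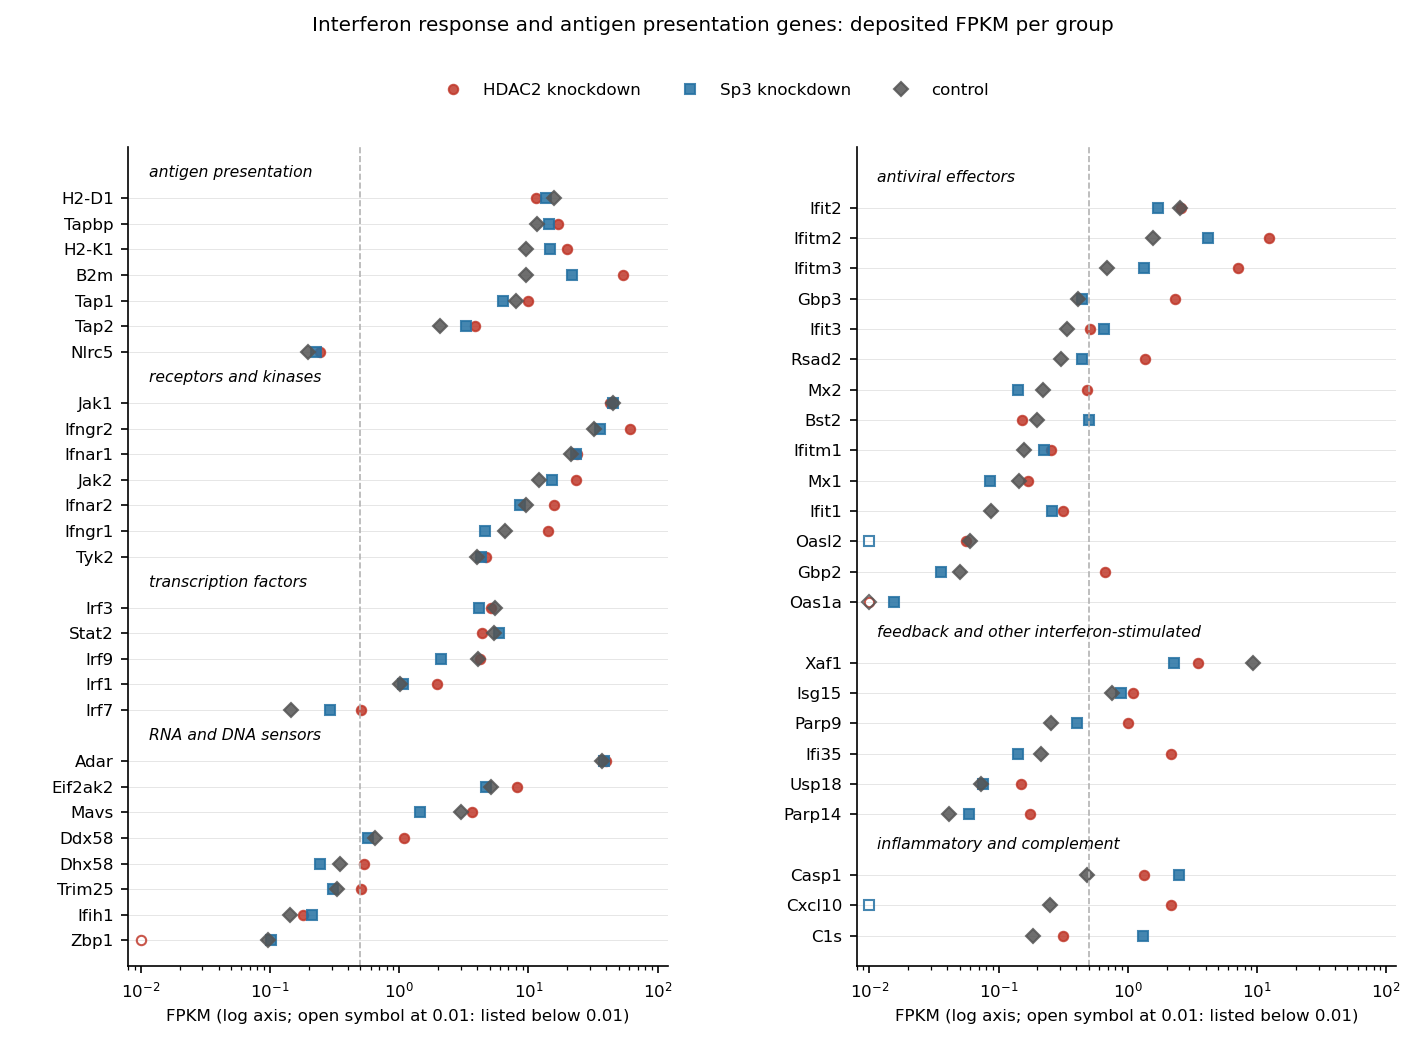
Deposited FPKM (log axis) of the 50 members found in the tables, grouped by role, with a symbol for HDAC2 knockdown, Sp3 knockdown and control. Signalling genes lie at the right, and most antiviral effectors of control lie left of the dashed line at 0.5 FPKM.

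Promoters of the members were rich in interferon motifs, which describes the list of names and not a change between the groups. RefSeq promoter windows on GRCm38.p6, from 250 bases before to 50 after the transcription start, were at hand for 40 of the 50 genes. The ISRE core, searched as GAAA, any 2 bases and again GAAA on both strands, was found in 16 of the 40 (40%), against 3.99% of the 27025 genes with a promoter window. The GAS pattern TTCNNNGAA was present in 10 (25%), against 9.55% of all genes, and the GC box GGGCGG, the kind of element that Sp proteins bind, in 23 (57.5%), against 38.2%. Among the members over 0.5 FPKM, from which the called genes come, 13 of the 35 with a window held the ISRE core (37.1%). Among those called higher in HDAC2 knockdown it was 7 of 15 (46.7%). Of these 7, Cxcl10, Gbp3 and Rsad2 passed the filter only through HDAC2 knockdown. Of those called higher in Sp3 knockdown it was 2 of 6 (33.3%), and of those called lower there it was 0 of 5. All 5 members called lower in Sp3 knockdown held a GC box. So did 7 of the 8 members that were tested in both tables and called in neither (87.5%). Among all 35 members over 0.5 FPKM with a window, 23 held it (65.7%). A match describes the letters of the window, and was not tested as a binding site.

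The following upstream sequences belong to members whose values are described below and carry the ISRE core, in capitals together with any GAS match. They are the 250 bases before the start on the gene's strand, from RefSeq GRCm38.p6, read 5′ to 3′. B2m lies at chr2:122147437-122147686 on the plus strand, and its match GAAACTGAAA begins 139 bases before the start. Ifitm2 lies at chr7:140955962-140956211 on the minus strand, with the match 46 bases before the start. Gbp3 lies at chr3:142559794-142560043 on the plus strand, and its overlapping matches on the other strand begin 45 and 39 bases before the start. Cxcl10 lies at chr5:92348890-92349139 on the minus strand, with the match at 213 bases. Isg15, at chr4:156200819-156201068 on the minus strand, has 3 overlapping matches 78, 72 and 66 bases before its start, and is shown because it was untested in HDAC2 knockdown and not called in Sp3 knockdown.
B2m: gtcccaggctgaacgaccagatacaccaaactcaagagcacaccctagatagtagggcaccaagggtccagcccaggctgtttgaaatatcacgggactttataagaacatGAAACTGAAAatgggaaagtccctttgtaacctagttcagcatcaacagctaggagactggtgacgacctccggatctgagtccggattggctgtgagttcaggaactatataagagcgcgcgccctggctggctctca
Ifitm2: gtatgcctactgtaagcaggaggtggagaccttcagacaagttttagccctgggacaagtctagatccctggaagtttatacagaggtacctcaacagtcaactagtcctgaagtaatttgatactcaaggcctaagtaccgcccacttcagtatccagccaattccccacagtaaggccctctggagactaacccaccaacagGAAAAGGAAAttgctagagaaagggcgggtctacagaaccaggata
Gbp3: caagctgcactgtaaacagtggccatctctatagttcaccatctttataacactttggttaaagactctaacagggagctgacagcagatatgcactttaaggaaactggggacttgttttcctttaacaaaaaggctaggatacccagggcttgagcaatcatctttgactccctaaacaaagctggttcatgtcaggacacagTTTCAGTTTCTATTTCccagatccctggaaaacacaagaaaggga
Cxcl10: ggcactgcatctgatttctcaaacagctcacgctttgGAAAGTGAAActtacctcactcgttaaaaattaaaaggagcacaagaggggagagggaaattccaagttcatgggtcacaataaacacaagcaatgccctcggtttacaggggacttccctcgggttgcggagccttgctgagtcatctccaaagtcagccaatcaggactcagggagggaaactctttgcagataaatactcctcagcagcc
Isg15: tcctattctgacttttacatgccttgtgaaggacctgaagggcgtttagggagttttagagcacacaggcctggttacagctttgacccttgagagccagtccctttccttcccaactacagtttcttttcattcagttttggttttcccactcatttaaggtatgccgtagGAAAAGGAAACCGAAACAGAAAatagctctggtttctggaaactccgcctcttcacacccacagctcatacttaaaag

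The next sequences come from members that were lower in Sp3 knockdown and held no ISRE core, with the GC box in capitals on either strand. Xaf1 lies at chr11:72301379-72301628 on the plus strand, with the box beginning 81 bases before the start. Mavs lies at chr2:131233813-131234062 on the plus strand, with boxes at 145, 56 and 7 bases.
Xaf1: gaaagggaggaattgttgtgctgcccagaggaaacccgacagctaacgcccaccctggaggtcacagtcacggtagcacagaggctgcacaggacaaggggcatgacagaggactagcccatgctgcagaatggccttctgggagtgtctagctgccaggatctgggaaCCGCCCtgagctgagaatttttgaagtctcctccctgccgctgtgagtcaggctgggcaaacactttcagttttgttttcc
Mavs: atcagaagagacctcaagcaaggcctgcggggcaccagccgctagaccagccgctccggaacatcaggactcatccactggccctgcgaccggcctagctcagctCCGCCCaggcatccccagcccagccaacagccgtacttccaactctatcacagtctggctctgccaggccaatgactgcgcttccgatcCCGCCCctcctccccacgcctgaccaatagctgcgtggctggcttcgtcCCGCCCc

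**Figure D3:**
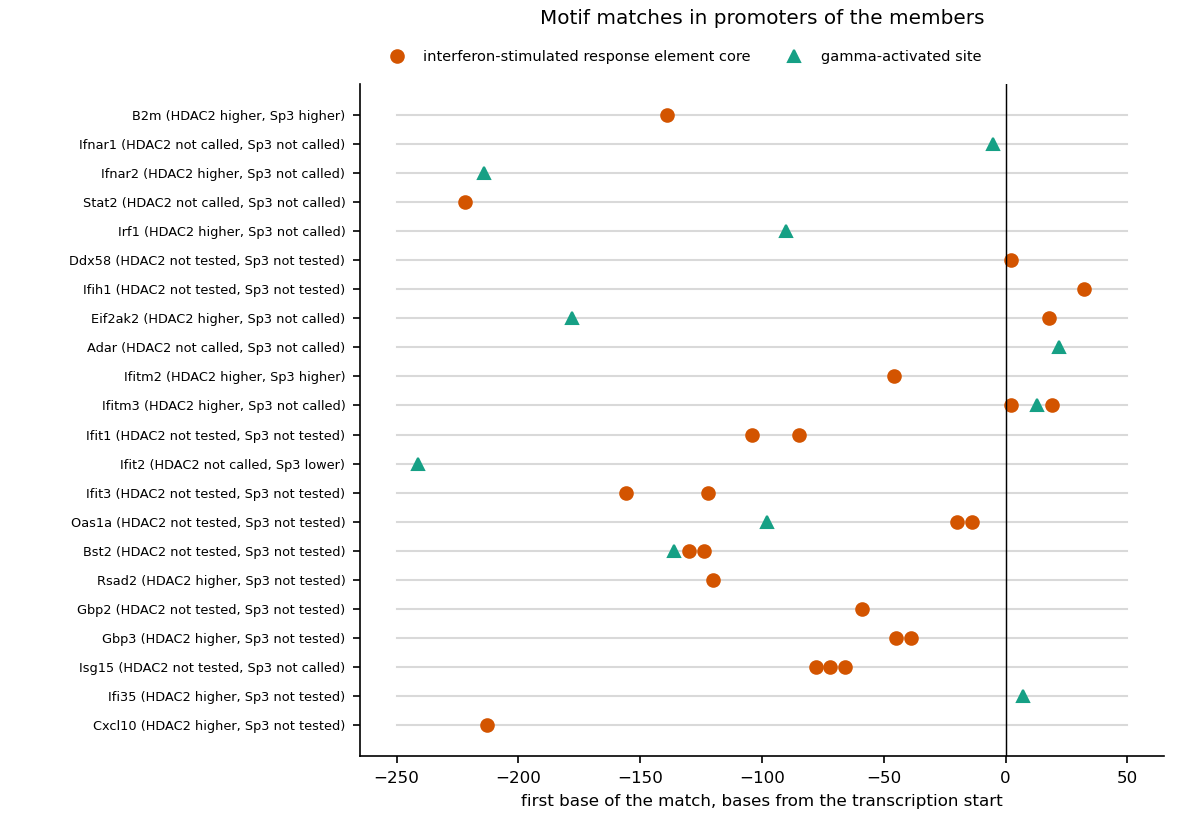
Position of ISRE core and GAS matches in the promoter windows of the members that hold any, in bases from the transcription start, 1 line per gene, with the call of the gene in each knockdown. ISRE matches lie upstream of the start in B2m, Ifitm2, Gbp3, Cxcl10 and Isg15.

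In HDAC2 knockdown a group of antigen presentation and antiviral genes was higher. Of the 28 members tested by the authors, 16 were called higher (57.1%) and 1 lower (3.57%), against backgrounds of 24.6% and 3.6%. After centring 9 were higher (32.1%) and 2 lower (7.14%), against 10.2% and 7.59%. Of the 9, Rsad2, Gbp3, Ifi35 and Cxcl10 were below 0.5 FPKM in control and passed the filter only through HDAC2 knockdown. The median log2 fold change of the tested members was 0.70, or 0.38 centred, against 0.31 and -0.0044 over all tested genes. Among members with at least 0.5 FPKM in control, 12 of 24 were called higher as deposited (50%), against 24.2% of all genes kept by that filter. Centred calls were not counted under that filter. The remaining 11 of the 39 were not tested by the authors, and of these Parp9, Gbp2 and Casp1 had an unadjusted p under 0.05.

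**Figure D4:**
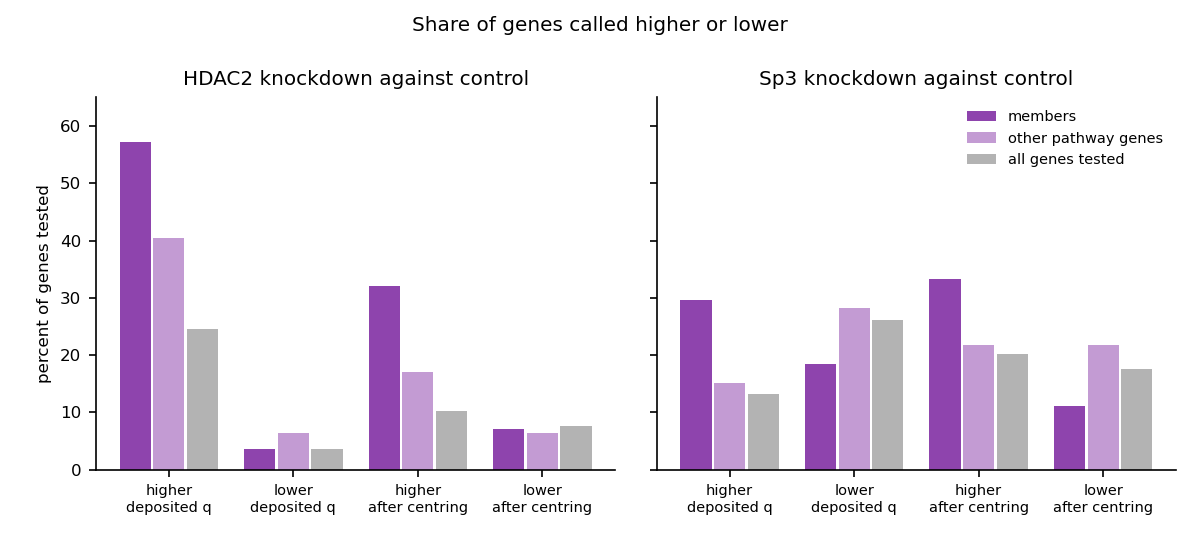
Percent of tested genes called higher or lower in each knockdown against control, for the members, for other genes of the pathway and for all genes, as deposited and after centring. The members' share called higher in HDAC2 knockdown is 57.1% as deposited and 32.1% after centring. Members that passed the filter only through a knockdown are included.

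Antigen presentation was led by B2m, the class I light chain. B2m stood at 53.5 FPKM in HDAC2 knockdown, 21.6 FPKM in Sp3 knockdown and 9.53 FPKM in control. The authors' deposited table gives 5.61-fold higher in HDAC2 knockdown with q listed at 0, and the centred log2 fold change was 2.17 ± 0.262 (SE), with an adjusted p of 1.11e-14. The gene lies at chr2:121945843-122011925 in mm9, in a locus the tables share with Patl2 and Trim69, both below 0.5 FPKM in every group. B2m was therefore the member with the clearest rise in HDAC2 knockdown by adjusted p, both as deposited and centred.

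H2-K1, a classical class I heavy chain at chr17:34132956-34137278 in mm9, stood at 19.9 FPKM in HDAC2 knockdown, 14.7 FPKM in Sp3 knockdown and 9.53 FPKM in control. It was 2.09-fold higher in HDAC2 knockdown by the authors' deposited table (q = 0.000142), and centred by 0.75 ± 0.246 (adjusted p = 0.0176). The other heavy chain, H2-D1, was lowest in HDAC2 knockdown, at 11.5 FPKM in HDAC2 knockdown, 13.8 FPKM in Sp3 knockdown and 15.8 FPKM in control. Its deposited log2 fold change of -0.45 was not called (q = 0.146 by the authors' deposited table), and it was lower after centring, at -0.77 ± 0.246 (adjusted p = 0.0137). H2-K1 and H2-D1 have near-identical copies, and H2-D1 shares its locus with H2-Q1 and LOC547349. How the authors divided reads among such copies is not given, so both values are uncertain.

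Of the peptide loading genes, Tap2 and Tapbp were called higher as deposited and not after centring. Tap2 had 3.88 FPKM in HDAC2 knockdown, 3.28 FPKM in Sp3 knockdown and 2.09 FPKM in control, 1.86-fold higher in HDAC2 knockdown by the authors' deposited table (q = 0.0186) and 0.58 ± 0.317 centred (adjusted p = 0.217). Tapbp had 16.9 FPKM in HDAC2 knockdown, 14.5 FPKM in Sp3 knockdown and 11.6 FPKM in control, 1.46-fold higher in HDAC2 knockdown by the authors' deposited table (q = 1.73e-05) and 0.23 ± 0.113 centred (adjusted p = 0.157). The transporter chain Tap1, at 9.90 FPKM in HDAC2 knockdown, 6.37 FPKM in Sp3 knockdown and 8.03 FPKM in control, was not called by the authors or after centring (centred -0.01 ± 0.235, adjusted p = 0.984). The 7 antigen presentation genes summed to 116 FPKM in HDAC2 knockdown, 74.4 FPKM in Sp3 knockdown and 56.7 FPKM in control. Much of that was B2m, and the other 6 summed to 62.3 FPKM in HDAC2 knockdown, 52.9 FPKM in Sp3 knockdown and 47.2 FPKM in control. These sums are not centred, and the median log2 fold change of the whole table was 0.32 in HDAC2 knockdown and -0.13 in Sp3 knockdown.

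All 7 receptor and kinase genes were tested, and 4 were called higher in HDAC2 knockdown as deposited, of which Ifngr1 was also called centred. Ifngr1, the ligand-binding chain of the interferon gamma receptor, stood at 14.2 FPKM in HDAC2 knockdown, 4.62 FPKM in Sp3 knockdown and 6.56 FPKM in control. The authors' deposited table gives 2.17-fold higher in HDAC2 knockdown (q = 5.47e-05), and centred it was 0.80 ± 0.245 (adjusted p = 0.00919). Its partner Ifngr2 stood at 60.6 FPKM in HDAC2 knockdown, 35.9 FPKM in Sp3 knockdown and 32.2 FPKM in control, called as deposited (q = 0.0032 by the authors' deposited table) and 0.60 ± 0.265 centred (adjusted p = 0.105). Ifnar2, a type I receptor chain, had 15.8, 8.62 and 9.55 FPKM in HDAC2 knockdown, Sp3 knockdown and control, and the kinase Jak2 had 23.4, 15.1 and 12.03 FPKM in the same order. Both were called higher in HDAC2 knockdown by the authors' deposited table (q = 0.00285 and 0.00133) and lost the call after centring (adjusted p = 0.173 and 0.0653). Ifnar1, Jak1 and Tyk2 were not called, with Ifnar1 at 23.6, 23.2 and 21.3 FPKM in HDAC2 knockdown, Sp3 knockdown and control. The locus of Jak1 is shared with Raver2.

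Of the 4 transcription factors tested in HDAC2 knockdown, Irf1 alone was called higher as deposited, at 1.97 FPKM in HDAC2 knockdown, 1.06 FPKM in Sp3 knockdown and 1.01 FPKM in control (q = 0.0486 by the authors' deposited table), and it lost the call after centring (adjusted p = 0.295). Stat2, Irf3 and Irf9 were not called. Irf7, the factor that amplifies type I interferon production, had 0.505 FPKM in HDAC2 knockdown, 0.292 FPKM in Sp3 knockdown and 0.145 FPKM in control and was not tested. Among the RNA sensors, Eif2ak2, the double-stranded RNA kinase PKR, was called higher as deposited, at 8.22 FPKM in HDAC2 knockdown, 4.67 FPKM in Sp3 knockdown and 5.16 FPKM in control (q = 0.0211 by the authors' deposited table, centred 0.35 ± 0.241 with adjusted p = 0.357). The RNA editing enzyme Adar, at 39.6, 38.6 and 37.4 FPKM in HDAC2 knockdown, Sp3 knockdown and control, was not called in either comparison, and its locus is shared with Chrnb2. The RIG-I gene Ddx58, the related Dhx58 and the ubiquitin ligase Trim25 were not tested, with highest values of 1.09, 0.536 and 0.509 FPKM, each in HDAC2 knockdown.

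Of the 14 antiviral effectors listed, 8 passed 0.5 FPKM and 5 were tested in HDAC2 knockdown, and the 4 called higher as deposited were also called after centring. Ifitm2, a membrane protein that restricts virus entry, stood at 12.5 FPKM in HDAC2 knockdown, 4.17 FPKM in Sp3 knockdown and 1.57 FPKM in control. The authors' deposited table gives 7.95-fold higher in HDAC2 knockdown (q = 3.97e-08), and centred it was 2.67 ± 0.497 (adjusted p = 1.97e-06). Its relative Ifitm3, at 7.09 FPKM in HDAC2 knockdown, 1.33 FPKM in Sp3 knockdown and 0.694 FPKM in control, was 10.2-fold higher in HDAC2 knockdown by the authors' deposited table (q = 7.53e-05) and 3.04 ± 0.749 centred (adjusted p = 0.000671). Both Ifitm genes were thus highest in HDAC2 knockdown, and because they are close relatives their reads may be shared.

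Gbp3, a guanylate-binding GTPase, stood at 2.33 FPKM in HDAC2 knockdown, 0.444 FPKM in Sp3 knockdown and 0.411 FPKM in control. It was 5.66-fold higher in HDAC2 knockdown by the authors' deposited table (q = 1.25e-05), and 2.18 ± 0.512 centred (adjusted p = 0.000294). The related Gbp2 had 0.667 FPKM in HDAC2 knockdown, 0.0358 FPKM in Sp3 knockdown and 0.05 FPKM in control and was not tested. Rsad2, which encodes the antiviral enzyme viperin, stood at 1.37 FPKM in HDAC2 knockdown, 0.444 FPKM in Sp3 knockdown and 0.303 FPKM in control, 4.51-fold higher in HDAC2 knockdown by the authors' deposited table (q = 0.000102) and 1.86 ± 0.493 centred (adjusted p = 0.0019). Gbp3, Gbp2 and Rsad2 were all below 0.5 FPKM outside HDAC2 knockdown. The remaining tested effector, Ifit2, which binds viral RNA, was not called, at 2.58 FPKM in HDAC2 knockdown, 1.71 FPKM in Sp3 knockdown and 2.55 FPKM in control. Ifit3 and Bst2, the surface tether of virus particles, were not tested and reached at most 0.653 and 0.504 FPKM, both in Sp3 knockdown.

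The feedback and modifier genes moved in both directions. Xaf1, an interferon-inducible pro-apoptotic gene at chr11:72115130-72127235 in mm9, stood at 3.51 FPKM in HDAC2 knockdown, 2.26 FPKM in Sp3 knockdown and 9.35 FPKM in control. The authors' deposited table gives a fold of 0.375 in HDAC2 knockdown (q = 6.87e-06), and centred the log2 fold change was -1.73 ± 0.282 (adjusted p = 3.32e-08). Xaf1 was the 1 member called lower in HDAC2 knockdown as deposited. Ifi35 had 2.18 FPKM in HDAC2 knockdown, 0.141 FPKM in Sp3 knockdown and 0.213 FPKM in control, 10.2-fold higher in HDAC2 knockdown by the authors' deposited table (q = 0.000483) and 3.04 ± 0.837 centred (adjusted p = 0.00302). Isg15, the ubiquitin-like modifier, was untested here at 1.10 FPKM in HDAC2 knockdown, 0.893 FPKM in Sp3 knockdown and 0.75 FPKM in control. Parp9, in a locus shared with Dtx3l, was also untested, at 0.996, 0.408 and 0.252 FPKM in HDAC2 knockdown, Sp3 knockdown and control.

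Among the inflammatory genes Cxcl10, the chemokine that draws T cells, was called higher, at 2.18 FPKM in HDAC2 knockdown and 0.25 FPKM in control, while it was listed at 0 in Sp3 knockdown. The authors' deposited table gives 8.72-fold higher in HDAC2 knockdown (q = 0.00655), and centred it was 2.81 ± 0.973 (adjusted p = 0.0261). Its locus is shared with Art3 and Cxcl11. Casp1 and C1s were not tested in HDAC2 knockdown. The summed astrocyte markers were 2443 FPKM in HDAC2 knockdown and 804 FPKM in control. Oligodendrocyte lineage markers summed to 428 and 225 FPKM, and microglia markers to 6.62 and 6.82 FPKM, in these groups. The part of any of these cells in the rises was not tested.

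**Figure D5:**
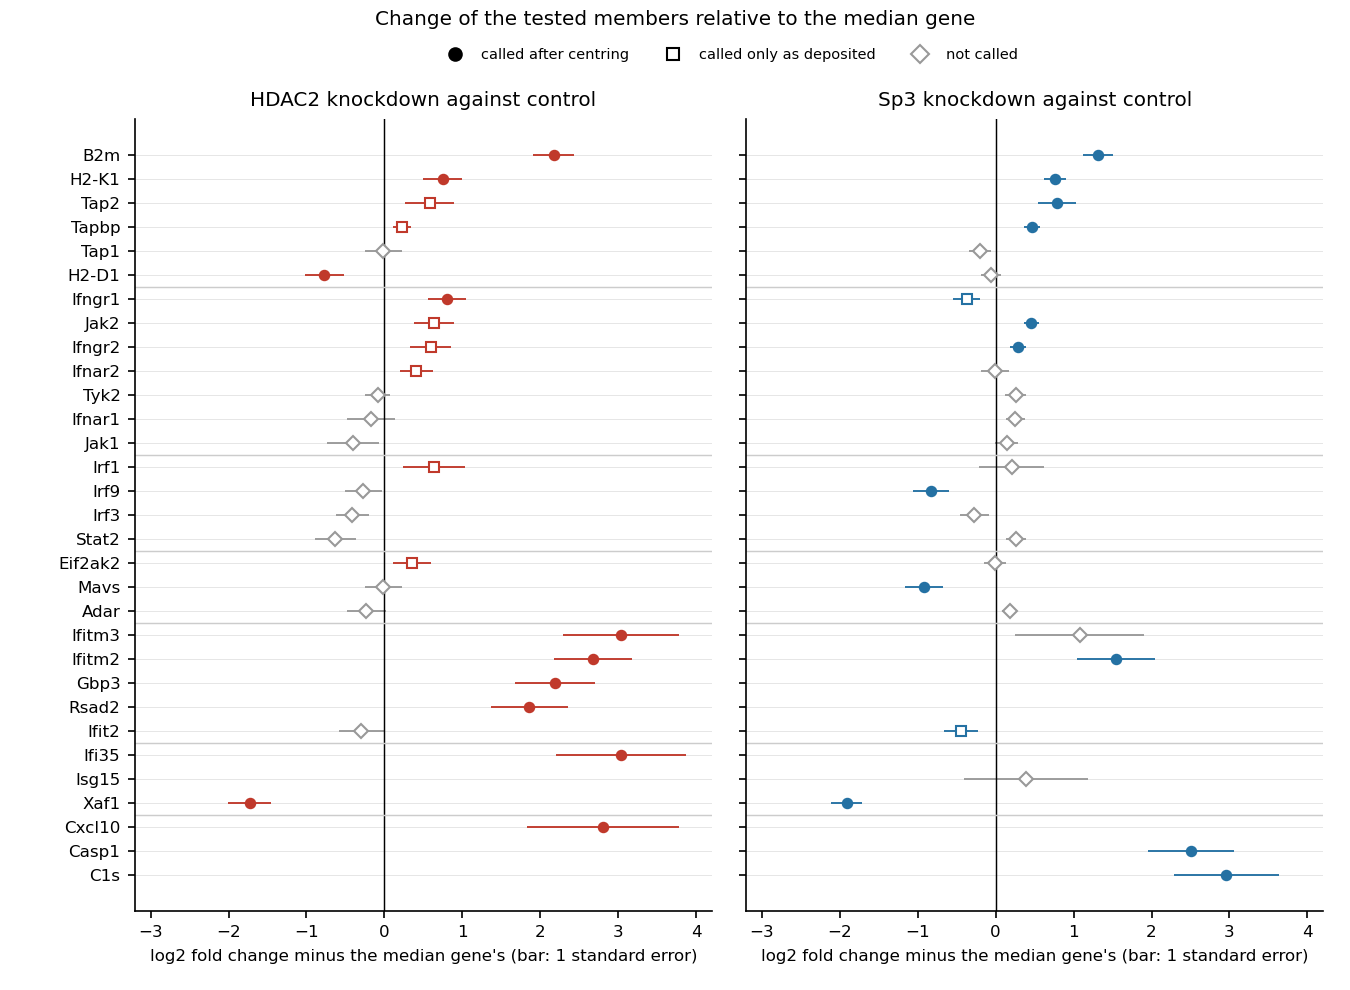
Centred log2 fold change of each tested member in HDAC2 knockdown and Sp3 knockdown against control, with bars of 1 standard error and members grouped by role. Ifitm3, Ifi35 and Cxcl10 lie farthest right in HDAC2 knockdown, C1s and Casp1 in Sp3 knockdown, and Xaf1 farthest left in both.

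In Sp3 knockdown 4 of the 6 antigen presentation genes tested were called higher, and Xaf1, Mavs and Irf9 were called lower. Of the 27 members tested, 8 were called higher (29.6%) and 5 lower (18.5%), against backgrounds of 13.2% and 26.1%. After centring 9 were higher (33.3%) and 3 lower (11.1%), against 20.2% and 17.6%. The median log2 fold change was 0.12, or 0.25 centred, against -0.13 and -0.0017 over all tested genes. Among members with at least 0.5 FPKM in control, 6 of 25 were called higher (24%) and 5 lower (20%), against 13.2% and 26.2% of all genes kept by that filter. The other 12 of the 39 were not tested.

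Of 6 antigen presentation genes tested, the same 4 were called higher as deposited and after centring. B2m was 2.26-fold higher in Sp3 knockdown by the authors' deposited table (q = 1.28e-08), and centred by 1.31 ± 0.19 (adjusted p = 8.93e-11). H2-K1 was 1.54-fold higher there (q = 0.000104 by the authors' deposited table), and its centred log2 fold change was 0.76 ± 0.142 (adjusted p = 8.98e-07). Tap2 and Tapbp were 1.57-fold and 1.26-fold higher in Sp3 knockdown by the authors' deposited table (q = 0.0274 and 0.00475), with centred values of 0.79 ± 0.244 and 0.46 ± 0.0996. H2-D1 and Tap1 were not called, at centred values of -0.06 ± 0.129 and -0.20 ± 0.14. The light chain, 1 heavy chain, 1 transporter chain and tapasin were thus above control in Sp3 knockdown by more than the authors' estimate of error.

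Among receptors and kinases, Jak2 was called higher in both readings, 1.25-fold by the authors' deposited table (q = 0.00447) and 0.46 ± 0.0976 centred (adjusted p = 1.89e-05). Ifngr2 was not called by the authors and was called after centring, at 0.29 ± 0.101 (adjusted p = 0.014). Ifngr1 was called lower as deposited, at a fold of 0.704 by the authors' deposited table (q = 0.018), and lost the call after centring (-0.37 ± 0.178, adjusted p = 0.0853). The chains of the interferon gamma receptor thus lay on opposite sides of control in Sp3 knockdown, with each called in only 1 of the readings.

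Irf9, the DNA-binding partner of Stat2, stood at 2.09 FPKM in Sp3 knockdown and 4.07 FPKM in control. Its fold was 0.514 by the authors' deposited table (q = 0.000189), and centred it was -0.83 ± 0.226 (adjusted p = 0.00116). In HDAC2 knockdown Irf9 was at 4.21 FPKM, close to control, and was not called. Mavs, the mitochondrial adaptor of the RNA sensors, stood at 1.44 FPKM in Sp3 knockdown and 2.99 FPKM in control, a fold of 0.481 by the authors' deposited table (q = 0.00012) and -0.92 ± 0.242 centred (adjusted p = 0.000682). Both genes fell in Sp3 knockdown by either reading. Stat2, Irf1, Irf3, Adar and Eif2ak2 were not called.

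Among the antiviral effectors in Sp3 knockdown, 3 were tested. Ifitm2 was 2.66-fold higher there by the authors' deposited table (q = 0.0199), and centred by 1.54 ± 0.503 (adjusted p = 0.00791), while Ifitm3 was not called, at 1.08 ± 0.829 (adjusted p = 0.321). Ifit2 was called lower as deposited (fold 0.67, q = 0.0283 by the authors' deposited table) and lost the call after centring (adjusted p = 0.0942). Gbp3, Rsad2, Ifi35 and Cxcl10, which had risen in HDAC2 knockdown, were not tested in Sp3 knockdown and lay at or below 0.444 FPKM there. Xaf1 had its lowest value here, 2.26 FPKM, a fold of 0.242 by the authors' deposited table with q listed at 0, and -1.91 ± 0.194 centred (adjusted p = 3.16e-21). Isg15 was tested in this comparison and not called (centred 0.39 ± 0.795).

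The inflammatory members Casp1 and C1s had the widest rises in Sp3 knockdown. Casp1, the protease that matures interleukin-1 beta, stood at 1.33 FPKM in HDAC2 knockdown, 2.51 FPKM in Sp3 knockdown and 0.483 FPKM in control, 5.2-fold higher in Sp3 knockdown by the authors' deposited table (q = 0.00016) and 2.51 ± 0.554 centred (adjusted p = 4e-05). C1s, a protease of the complement C1 complex, stood at 0.313 FPKM in HDAC2 knockdown, 1.32 FPKM in Sp3 knockdown and 0.186 FPKM in control. It was 7.09-fold higher in Sp3 knockdown by the authors' deposited table (q = 0.000243), and centred by 2.96 ± 0.675 (adjusted p = 7.5e-05). Casp1 passed the filter only through the knockdowns, and C1s only through Sp3 knockdown. Beside these rises microglia markers summed to 4.87 FPKM in Sp3 knockdown and 6.82 FPKM in control. Of 3 pericyte and fibroblast markers tested in Sp3 knockdown, 1 was called higher and 1 lower. Dcn, called higher, stood at 49.9 FPKM in Sp3 knockdown and 26.6 FPKM in control. Pdgfrb, called lower, stood at 0.502 FPKM in Sp3 knockdown and 1.18 FPKM in control. The part of these cells in the rises was not tested.

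HDAC2 knockdown was then set against Sp3 knockdown by the difference of centred log2 fold changes, over the 24 members tested in both tables. Errors are built from the SE of the authors' test in each comparison. Because both share the control, the SE used is too large for this difference. It was higher in HDAC2 knockdown for 2 members (8.33%) and lower for 1 (4.17%), against backgrounds of 7.86% and 6.87%, so the members' share was close to that of all genes. Ifngr1, at 14.2 FPKM in HDAC2 knockdown and 4.62 FPKM in Sp3 knockdown, differed by 1.17 ± 0.303 on the authors' errors (adjusted p = 0.0017). Mavs, at 3.69 FPKM in HDAC2 knockdown and 1.44 FPKM in Sp3 knockdown, differed by 0.91 ± 0.338 on the authors' errors (adjusted p = 0.0497). Stat2, part of the type I interferon signalling complex, was lower, at 4.39 FPKM in HDAC2 knockdown and 5.96 FPKM in Sp3 knockdown, with a difference of -0.89 ± 0.295 on the authors' errors (adjusted p = 0.022). B2m differed by 0.86 ± 0.323 on the authors' errors and missed the threshold (adjusted p = 0.0516), as did H2-D1 at -0.71 ± 0.278 (adjusted p = 0.0672). Ifitm2 and Ifitm3 differed by 1.13 ± 0.707 and 1.96 ± 1.12 on the authors' errors (adjusted p = 0.332 and 0.27), so their order between the knockdowns was not resolved. By the same use of the authors' errors the difference was -0.01 for H2-K1 (adjusted p = 0.991), and 0.18 ± 0.342 for Xaf1 (adjusted p = 0.823).

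The wider pathway was read from 127 further genes, of which 121 were in the tables and 67 passed 0.5 FPKM. In HDAC2 knockdown 19 of 47 tested were called higher (40.4%) and 3 lower (6.38%), against 24.6% and 3.6% of all genes, and after centring 8 higher (17%) and 3 lower, against 10.2% and 7.59%. In Sp3 knockdown 7 of 46 were called higher (15.2%) and 13 lower (28.3%), against 13.2% and 26.1% of all genes, and after centring 10 each (21.7%), against 20.2% and 17.6%. The shares called higher in Sp3 knockdown were near those of all genes. None of the 10 interferon and chemokine genes on that list reached 0.5 FPKM, and Ifnb1, Ifng, Ifna4 and Il28b, named here after their values were seen, were listed at 0 in every group. Sensing and signalling genes gave 8 higher and 0 lower calls of 13 in HDAC2 knockdown (3 and 0 centred), and 3 higher and 3 lower of 13 in Sp3 knockdown (5 and 3 centred). Effectors gave 5 higher and 1 lower of 18 in HDAC2 knockdown (2 and 1 centred), and 2 higher and 7 lower of 18 in Sp3 knockdown (2 and 5 centred), to be read against the same shares of all genes.

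Among these genes Tlr3, the endosomal receptor for double-stranded RNA, stood at 2.52 FPKM in HDAC2 knockdown, 1.91 FPKM in Sp3 knockdown and 0.609 FPKM in control, with centred values of 1.73 ± 0.384 and 1.78 ± 0.322 in HDAC2 and Sp3 knockdown. The peptide-trimming enzyme Erap1 stood at 6.85, 5.01 and 2.86 FPKM in the same order of groups, 0.94 ± 0.257 and 0.94 ± 0.17 centred. Cmpk2, an interferon-inducible mitochondrial kinase, stood at 9.47, 7.27 and 3.85 FPKM, 0.98 ± 0.259 and 1.05 ± 0.163 centred. All 3 were called higher in both authors' deposited tables. C4b, a complement component that astrocytes also express, was called in HDAC2 knockdown, at 4.37 FPKM there, 0.498 FPKM in Sp3 knockdown and 0.441 FPKM in control.

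Class I related genes were also among those called lower in both knockdowns. H2-T23, a non-classical class I gene, stood at 30.3 FPKM in HDAC2 knockdown, 19.9 FPKM in Sp3 knockdown and 183 FPKM in control, with folds of 0.165 and 0.108 in the authors' deposited tables, and as a class I gene with close copies its reads are uncertain. Tapbpl, a tapasin relative that edits bound peptides, stood at 13.7, 9.46 and 84.5 FPKM in the same order, and Slfn5, an interferon-inducible schlafen gene, at 5.95, 4.11 and 22.4 FPKM. The locus of H2-T23 is shared with A930015D03Rik and H2-T24, and that of Tapbpl with Cd27 and E130112N10Rik. H2-T23, Tapbpl and Slfn5 were called lower in both tables, while B2m, H2-K1, Tap2 and Tapbp were higher. Both tables use the same control value for each gene. Stat3, at 33.6 FPKM in HDAC2 knockdown, 17.4 FPKM in Sp3 knockdown and 25.3 FPKM in control, differed between the knockdowns by 0.50 ± 0.123 on the authors' errors (adjusted p = 0.000883). Tor3a, an interferon-inducible member of the torsin family, had 5.97, 1.80 and 3.57 FPKM in that order and differed by 1.28 ± 0.322 on the authors' errors (adjusted p = 0.00118).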

How the data were processed

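RNA sequencing was done on 6 libraries in 3 groups of 2. Per the submitters' processing notes the tools were TopHat, Bowtie and Cuffdiff with the mouse build mm9, versions not given. Annotation, strand setting and the handling of multiply mapped reads are not stated in those notes. Per the file headers each deposited table compares 1 knockdown with control and holds 1 FPKM value per group, with the log2 fold change, its test statistic, p-value and q-value. The log2 fold change and test statistic are treated as a score, because the authors write a fold against 0 as an extreme number. Depth per library is unknown and no values per library were used.

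Called means tested by the authors with q under 0.05. SE is the log2 fold change divided by the test statistic with its sign reversed, and SE over 5 was treated as missing. Centring subtracts the median log2 fold change of tested genes that reach 1 FPKM in a group compared. Its p is normal and two-sided, with Benjamini-Hochberg adjustment over the whole table, as is the p of the difference between knockdowns. The calculations were checked on simulated data. Alternatives varied the q threshold, adjustment, minimum fold, FPKM filters, scaling and pseudocount. Python 3.11.15, pandas 2.3.3 and scipy 1.17.1 were used. The members and lists were chosen with earlier results of these data known. Of the members every gene is accounted for. Of the further pathway genes the text draws, per direction, on the 5 with the smallest deposited p among those called that reach 1 FPKM in a comparison, and on the 3 with the smallest p of the difference, and gives part of them.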

Additional observations from a re-analysis of the deposited data

Results flagged for a closer look

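The difference between HDAC2 and Sp3 knockdown, each relative to control and centred, passed the threshold for 3 members. Of 24 members tested 2 were higher (8.33%) and 1 lower (4.17%), near the 7.86% and 6.87% of all genes, so the count is not particular to the members. Ifngr1 differed by 1.17, with centred log2 fold changes of 0.80 in HDAC2 knockdown and -0.37 in Sp3 knockdown. Mavs differed by 0.91, with -0.02 in HDAC2 knockdown and -0.92 in Sp3 knockdown. Stat2 differed by -0.89, with -0.63 in HDAC2 knockdown and 0.26 in Sp3 knockdown. The astrocyte markers, summing to 2443 FPKM in HDAC2 knockdown and 684 FPKM in Sp3 knockdown, differ between the same groups, and their part in these differences was not tested.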

How the results depend on the processing

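No paired analysis was possible because the tables hold 1 value per group, and for the same reason leaving out a library could not be run. In HDAC2 knockdown centring, and equally upper-quartile scaling, left 9 of 16 higher members called, gave 2 lower in place of 1, and brought the median log2 fold change to 0.38 in place of 0.70. Further pathway genes called higher there numbered 8 by either scaling and 9 at q under 0.01, in place of 19. Members called lower in Sp3 knockdown numbered 3 in place of 5 at q under 0.01, with a fold of at least 1.5, centred and by upper quartile. Further pathway genes called higher in Sp3 knockdown numbered 4 in place of 7 with a fold of at least 1.5. Members with a higher difference numbered 1 at 0.01 and 7 without centring, in place of 2. Those with a lower difference numbered 0 at 0.01, 2 at 0.1 and 0 without centring, in place of 1, and 2 had an unadjusted p under 0.05. Without centring, the shifts of the whole tables, 0.32 in HDAC2 and -0.13 in Sp3 knockdown, enter the difference of every gene. The share of all genes at these settings is not given here, so these counts of differences cannot be read as particular to the members. Uncalled members of HDAC2 knockdown turned negative after centring and by upper quartile: Tap1 (-0.014, -0.020), Ifnar1 (-0.17, -0.18), Tyk2 (-0.088, -0.094), Irf9 (-0.27, -0.28), Mavs (-0.015, -0.021), Adar (-0.23, -0.24) and Ifit2 (-0.30, -0.30). The scaling itself subtracts 0.32 there. Requiring 0.5 FPKM in control, chosen after seeing the data, gave 12 higher in HDAC2 and 6 in Sp3 knockdown as deposited. Over single members in both comparisons, either scaling kept 37 results on their side of the threshold, ended 9 calls, added 2 and turned the 7 above. A threshold of 0.01 kept 48 and ended 7 calls, and 0.1 kept 53 and added 2. Benjamini-Hochberg adjustment within a table kept 53, ended the call of Irf1 in HDAC2 knockdown and added Tap1 in Sp3 knockdown. Depth is unknown, and the 11 members under 0.5 FPKM have no test, nor do 11 above it in HDAC2 and 12 in Sp3 knockdown.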

Other observations

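Further genes of the pathway that belong to signalling and class II loading also differed. Traf3, an adaptor for interferon induction, stood at 45.8 FPKM in HDAC2 knockdown, 40.4 FPKM in Sp3 knockdown and 29.8 FPKM in control. Its centred log2 fold change was 0.30 ± 0.0757 (SE) in HDAC2 knockdown and 0.57 ± 0.047 in Sp3 knockdown, and it was called higher in both. The phosphatase Ptpn11 stood at 37.5, 24.6 and 21.3 FPKM in HDAC2 knockdown, Sp3 knockdown and control and was also called higher in both. Ly6e, an interferon-inducible surface protein gene, was called lower in Sp3 knockdown, at 14.2 FPKM there and 20.7 FPKM in control, with 23.7 FPKM in HDAC2 knockdown. H2-DMa, a class II loading chain, stood at 11.7 FPKM in HDAC2 knockdown and 16.01 FPKM in Sp3 knockdown, a centred difference of -0.90 ± 0.324 (adjusted p = 0.0388 from the authors' errors).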
